A study of Mus musculus with 43 samples.

Results

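The genes described here encode the machinery that carries RNA polymerase II (Pol II) through initiation, pausing, elongation and termination, measured by RNA-seq in E14 mouse embryonic stem cells with and without a knockout of MTF2. They were picked by a rule on gene symbols: the Integrator genes (Ints), the Pol II subunits and Polr2m (Polr2), the negative elongation factor NELF (Nelf), the numbered Supt genes, the Mediator genes (Med), and Ell, Ell2, Ell3, Aff1 and Aff4 of the super elongation complex. The rule took 73 of 22462 genes, and the rule itself uses no measured value. Of these, 72 were tested by the authors, and the kinase module gene Med12l (control 0.590 FPKM, knockout 0.491 FPKM) was not.

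MTF2 is a Polycomb-like partner of Polycomb repressive complex 2, the histone H3 lysine 27 methyltransferase. Control cells carry the genotype label Control and knockout cells the label MTF2 KO. Both are the E14 line (ES-E14TG2a), grown on gelatin in DMEM with 15% serum and LIF, the cytokine that holds mouse stem cells in self-renewal. The sources used here do not say how the knockout was made or how many clones it covers. Each group had 3 RNA-seq libraries, but the authors' deposited table holds 1 pooled level per gene and group, in FPKM (fragments scaled to transcript length and to the number of mapped fragments), so no SD and no library value can be given, and the depth of each library is unknown. All FPKM, test statistics and q values below are those of this deposited table.

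Pol II is a 12-subunit enzyme, of which some subunits are its own and others also serve Pol I and Pol III. After initiation it often pauses close to the start site, held by NELF together with DSIF, and the kinase P-TEFb, which can arrive within the super elongation complex, frees it. Integrator binds paused Pol II, cuts the nascent RNA and can end transcription early, and it forms the 3′ ends of small nuclear RNAs. Mediator bridges transcription factors and Pol II through head, middle and tail modules and a detachable kinase module. Embryonic stem cells are known for their reliance on Mediator at genes of the pluripotency network.

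Each change is printed as a ratio, the log2 of (knockout FPKM + 0.5) over (control FPKM + 0.5), so a negative value is a lower level in knockout cells. A gene is called where the authors tested it and their Cuffdiff q, a p-value adjusted over all 11362 tested genes, is at or under 0.05. The q of 0.0012 printed for several genes comes from the same deposited Cuffdiff p of 5e-05, so it does not rank them. The error given beside a ratio is the one implied by the deposited test statistic, in log2 units, and it is not the spread between libraries. Over the 72 tested genes this error had a median of 0.50 and ran from 0.36 to 1.81.

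As a check of the labels, Mtf2 itself went from 74.3 to 44.7 FPKM (ratio -0.73, Cuffdiff q = 0.0496). Reads were thus still assigned to Mtf2 in the cells labelled knockout, though Mtf2 shares its locus entry with 1 other gene. The 8 stem cell markers, Pou5f1 and Nanog among them, summed to 5184 FPKM in control cells and 5085 FPKM after knockout, and 1 of them, Tfcp2l1, was called higher. Levels lay below control in 5 of the 8, such as Zfp42 at 725 and 492 FPKM (q = 0.0743), and above it in 3. Dppa5a, which weighs most in the sum, was among those above, at 1481 and 1876 FPKM. The 9 primitive endoderm markers summed to 27.5 and 510 FPKM, with 7 called higher and 0 lower. Of the called ones, Gata4 and Sox7 lie on chromosome 14 and Col4a1 on chromosome 8, which are treated further on, and the rest lie on other chromosomes. Of 6 fibroblast markers only Vim and Thy1 were tested, neither was called, and Dcn and Postn were listed at 0 in both groups. In whole cultures such as these, fewer cells of a type and less RNA per cell cannot be told apart, and the part of the primitive endoderm cells in any ratio below was not tested.

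The series as a whole is about CpG islands, stretches of DNA rich in the CG dinucleotide that cover many promoters. The promoters of the called Integrator genes are therefore shown first, where the RefSeq promoter table of build GRCm38.p6 holds them. Ints1, Ints3 and Ints13 were called lower in knockout cells and Ints6 higher. Each line gives the 150 bases before the transcription start on the minus strand, 5′ to 3′, with every CG in capitals.
Ints1: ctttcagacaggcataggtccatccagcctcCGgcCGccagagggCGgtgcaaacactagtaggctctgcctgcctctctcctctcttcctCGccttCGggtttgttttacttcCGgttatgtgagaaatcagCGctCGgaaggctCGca
Ints3: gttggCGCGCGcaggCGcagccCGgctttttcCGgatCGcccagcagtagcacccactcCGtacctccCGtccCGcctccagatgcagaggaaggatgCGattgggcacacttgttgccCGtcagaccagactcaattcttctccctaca
Ints13: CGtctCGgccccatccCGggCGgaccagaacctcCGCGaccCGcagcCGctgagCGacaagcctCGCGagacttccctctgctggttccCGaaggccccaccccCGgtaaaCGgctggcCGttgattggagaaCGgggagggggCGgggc
Ints6: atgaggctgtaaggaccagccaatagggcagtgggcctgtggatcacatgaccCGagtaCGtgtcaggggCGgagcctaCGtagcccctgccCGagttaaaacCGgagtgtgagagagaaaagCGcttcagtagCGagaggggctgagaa
They lie at chr5:139775679-139775828 (Ints1), chr3:90433637-90433786 (Ints3), chr6:146577836-146577985 (Ints13) and chr14:62761113-62761262 (Ints6). The stretch of Ints13 holds 17 CG dinucleotides and that of Ints3 holds 12, against 9 in Ints1 and 8 in Ints6. Over the 300 bases around the start the order changes, with 32 in Ints13, 23 in Ints3, 19 in Ints6 and 18 in Ints1. All 4 promoters count as island-like by the base composition measure given further on. Whether the CG count goes with the direction of change was not tested.

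Most of the 72 tested genes went uncalled. By the q of the authors' deposited table, 5 were called higher in knockout cells (Ints6, Ints9, Supt16, Med6 and Ell3) and 8 lower (Ints1, Ints3, Ints5, Ints8, Ints13, Polr2e, Nelfe and Med15). Of all tested genes, 6.90% were called higher and 6.03% lower. In either direction, 18.1% of the set was called and 12.9% of all tested genes. Levels lay above control in 28 genes and below it in 44, while over all tested genes the split was 5659 to 5703. The median ratio of the set was -0.08 (interquartile range -0.42 to 0.28), beside -0.0035 (-0.40 to 0.47) over all tested genes. An unadjusted deposited p under 0.05 was held by 17 of the 72, beside 2922 of all 11362. All 13 calls rest on the deposited p: with a normal p computed from the deposited test statistic, 0 of them were called, the smallest q among them being 0.0698 for Ints9. At a q of 0.01, 3 higher and 3 lower calls remained.

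**Figure D1:**
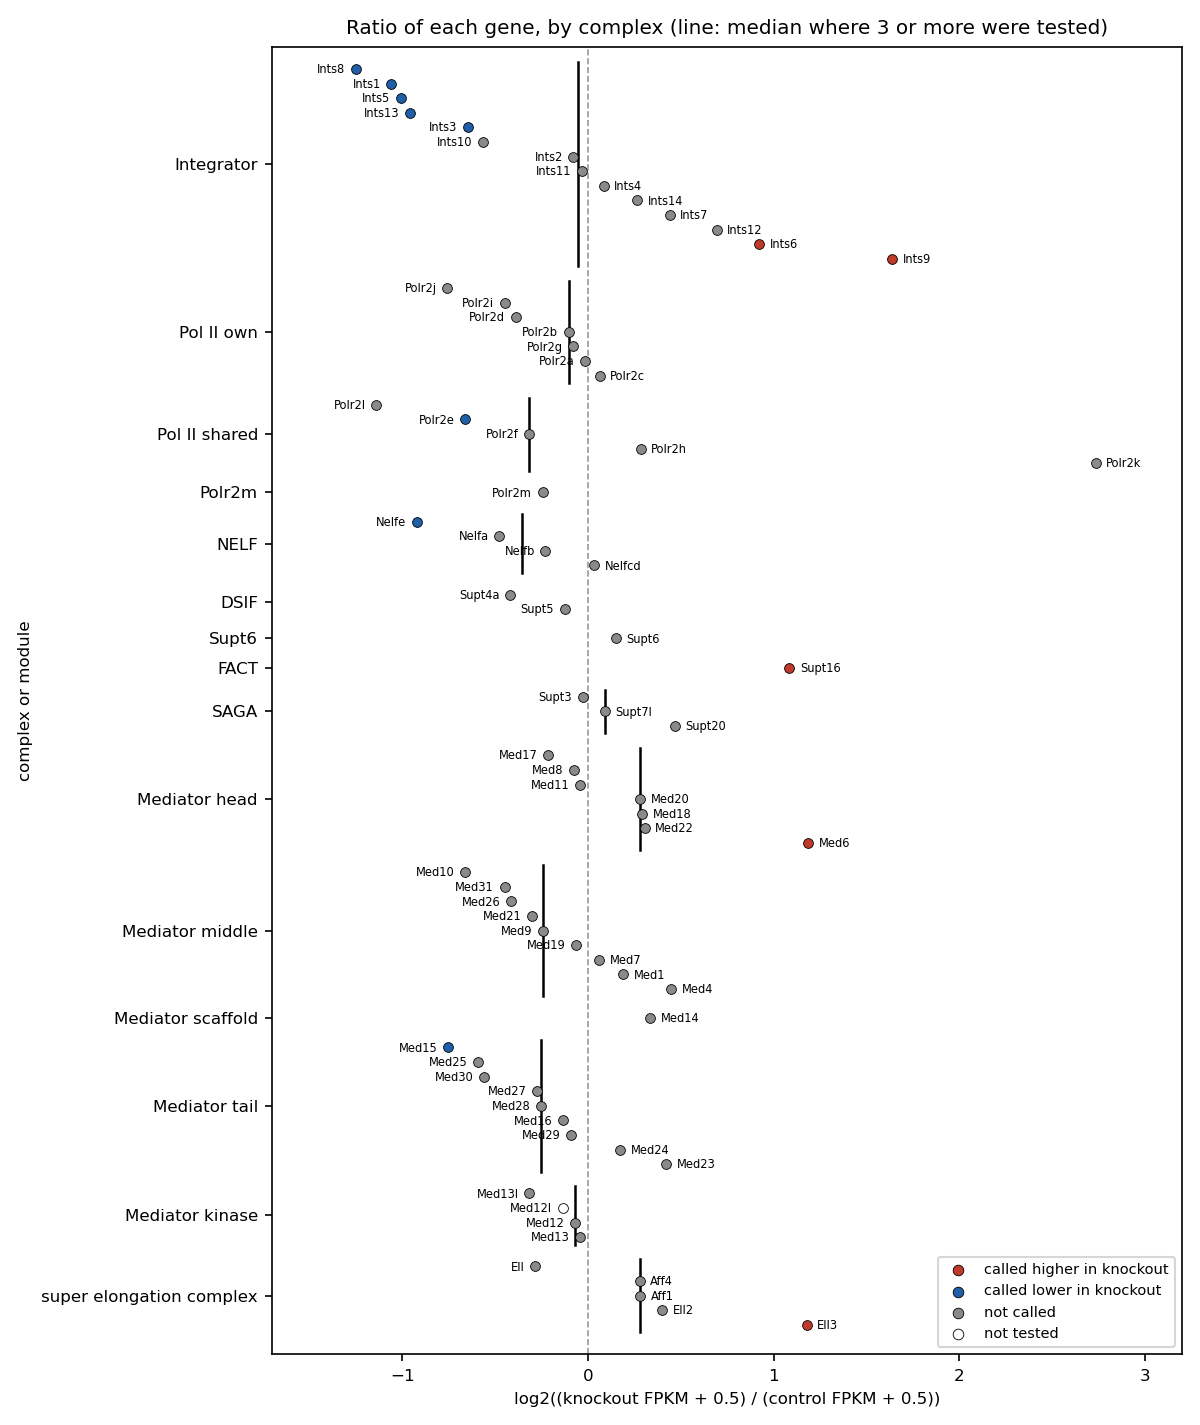
Ratio of knockout over control (x axis, log2 of FPKM + 0.5) for each of the 73 genes, in rows by complex or module, with red and blue points for genes called higher and lower and a vertical bar for the median where 3 or more genes were tested. Integrator spans the range from Ints8 at -1.25 to Ints9 at 1.64 and holds 7 of the 13 calls, while the subunits found in Pol II alone lie between -0.76 and 0.06 with 0 called.

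Integrator held 7 of the 13 calls. Of its 14 genes 7 were called, 2 higher and 5 lower, beside 12.9% called among all tested genes and 6 of 58 in the rest of the set. Its median ratio was near 0 (-0.06), because genes moved in opposite directions, with an interquartile range of -0.88 to 0.40. The summed level of the 14 genes was 995 FPKM in control cells and 603 FPKM after knockout, 60.5% of control, beside 90.3% for the sum over all genes. Most of that loss was Ints5, and without it the sum went from 328 to 271 FPKM (82.7%).

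The cleavage module is made of Ints4, Ints9 and Ints11, with Ints11 as the RNA endonuclease and Ints9 as its inactive partner. Ints9 (chromosome 14, 64950045 to 65039835) rose from 8.07 to 26.2 FPKM (ratio 1.64, error 0.51, Cuffdiff q = 0.0012). Ints11 stood at 68.7 and 67.1 FPKM (ratio -0.03, error 0.41, q = 0.948). Ints4 stood at 19.02 and 20.2 FPKM (q = 0.862). Within the module, 1 gene thus rose more than 3-fold (3.24), and its catalytic partner differed from control by far less than its error.

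Among the structural subunits, Ints1 (chromosome 5, 139751282 to 139775673), which is the largest Integrator protein, fell from 44.9 to 21.3 FPKM (ratio -1.06, error 0.37, Cuffdiff q = 0.0012). Its backbone partners were not called, with Ints2 at 5.89 and 5.55 FPKM (q = 0.897) and Ints7 at 13.2 and 18.04 FPKM (q = 0.210). Ints5 and Ints8 sit together in the complex, where Ints8 contacts the phosphatase PP2A. Ints8 (chromosome 4, 11191354 to 11254258) fell from 15.96 to 6.41 FPKM (ratio -1.25, error 0.61, Cuffdiff q = 0.0112), a control level 2.49 times that of the knockout. Ints5 (chromosome 19, 8883732 to 8897890) fell from 667 to 331 FPKM (ratio -1.01, error 0.54, Cuffdiff q = 0.0164). Its level in control cells was the highest per length of the 14 genes, Ints11 being next at 68.7 FPKM. Knockout levels of the called genes among these were 47.4% of control for Ints1, 49.6% for Ints5 and 40.2% for Ints8, while their levels per length differed widely.

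Ints10, Ints13 and Ints14 form a separate arm. Ints13 (chromosome 6, 146549632 to 146599198) fell from 58.4 to 29.8 FPKM (ratio -0.96, error 0.43, Cuffdiff q = 0.00518). Ints10 stood at 35.2 and 23.7 FPKM (ratio -0.56, q = 0.124) and Ints14 at 10.9 and 13.2 FPKM (q = 0.589). Thus 1 of the 3 arm genes was called, beside 12.9% of all tested genes. Ints3 and Ints6 also belong to SOSS, a complex that binds single-stranded DNA at breaks, and Ints6 helps to bring PP2A to Integrator. They moved in opposite directions. Ints3 (chromosome 3, 90391388 to 90433613) fell from 39.4 to 24.98 FPKM (ratio -0.65, error 0.39, Cuffdiff q = 0.0312). Ints6 (chromosome 14, 62663667 to 62761112) rose from 2.47 to 5.13 FPKM (ratio 0.92, error 0.64, Cuffdiff q = 0.0419) and was the gene with the lowest control level of the 14. The PHD finger subunit Ints12 stood at 5.91 and 9.88 FPKM and was not called (ratio 0.69, error 0.82, q = 0.348).

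**Figure D2:**
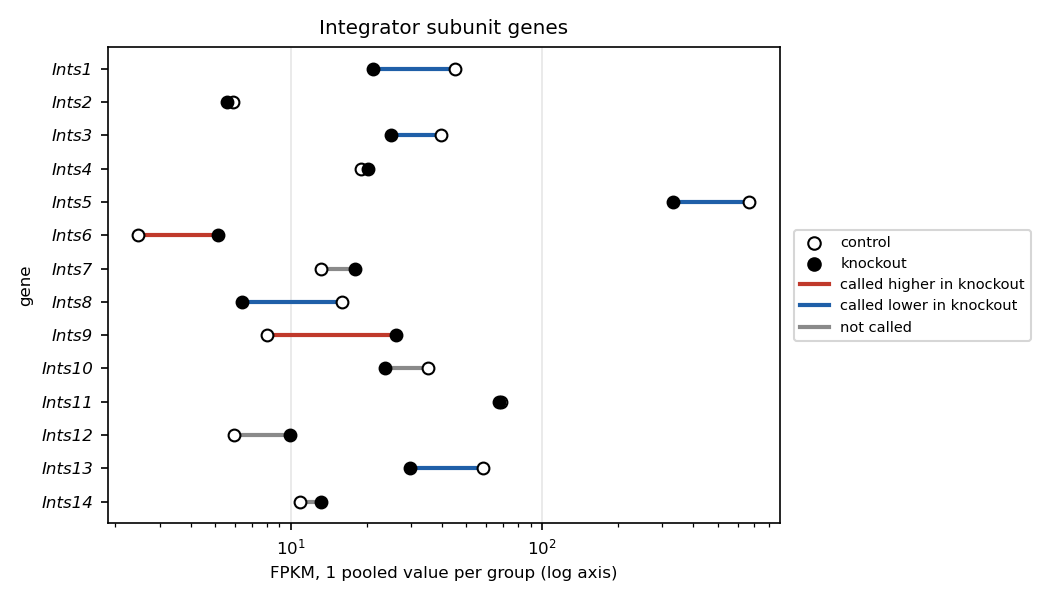
Pooled FPKM (log axis) of the 14 Integrator genes in control and knockout cells, 1 deposited value per gene and group and so no error bars. The 5 genes called lower start between 15.96 and 667 FPKM and the 2 called higher at 2.47 and 8.07 FPKM.

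In Integrator, every gene called lower thus had a higher control level than either gene called higher. Across the 72 tested genes the Spearman correlation of mean FPKM with the ratio was -0.32, and across all 11362 tested genes it was -0.19. Both are descriptions across genes, which share the same libraries, and mean FPKM holds the same values as the ratio.

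The table does not fully separate some of these genes from their neighbours. Of the 73 genes, 20 share a merged locus entry with another gene, and so do 5 of the 13 called ones and 6 of the 14 Integrator genes. Ints5 shares its entry with 1810009A15Rik (239 and 155 FPKM) and Lbhd1, Ints13 with Fgfr1op2 (27.8 and 18.1 FPKM) and Ints8 with the cyclin gene Ccne2 (1.06 and 4.49 FPKM), none of which was called. Ints6 shares one with Serpine3, listed at 0 in both groups, and Supt16 with Rpgrip1 (0.252 and 0.346 FPKM), which was not tested. The positions printed for these 5 called genes are those of the merged entry and can reach past the gene itself. The sources used here do not say whether counting used the strand, so reads of overlapping genes cannot be told apart. Among the 8 Integrator genes with an entry of their own, 1 was higher (Ints9) and 2 were lower (Ints1 and Ints3).

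Of the 7 subunits found in Pol II alone, 0 were called, beside 12.9% of all tested genes, and 1 had an unadjusted p under 0.05. The largest subunit Polr2a, which carries the C-terminal repeat domain, stood at 189 and 187 FPKM (ratio -0.01, error 0.40, q = 0.976). Polr2b, with which it forms the active site, stood at 21.2 and 19.7 FPKM (ratio -0.10, error 0.42, q = 0.827). Polr2c stood at 38.0 and 39.7 FPKM and was the only one of the 7 with a level above control.

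The lower levels of the others did not pass the test. Polr2j, a partner of Polr2c in assembly, stood at 419 and 248 FPKM (ratio -0.76, error 0.56, Cuffdiff q = 0.106). Polr2i stood at 179 and 131 FPKM and Polr2d at 177 and 135 FPKM, and Polr2g, which forms the stalk with Polr2d, at 70.0 and 66.2 FPKM. The median ratio of the 7 was -0.10 and, without Polr2c, the only one on chromosome 8 or 14, -0.25. Chromosome 8 had a median ratio of -0.0055 over its 653 expressed tested genes, but with changes in both directions, 75 being called higher and 58 lower. That is 20.4% called, beside 12.9% of all tested genes. Of the 20 such genes nearest to Polr2c, 10 lay above control (median ratio 0.01).

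Of the 5 subunits shared with Pol I and Pol III, 1 was called, beside 12.9% of all tested genes. Polr2e (chromosome 10, 80035949 to 80039795) fell from 447 to 282 FPKM (ratio -0.66, error 0.37, Cuffdiff q = 0.0236). Polr2f, the most abundant of all 73 genes per length, stood at 1067 and 856 FPKM (ratio -0.32, q = 0.347), and Polr2h at 38.2 and 46.6 FPKM (q = 0.571). The small zinc-binding subunits Polr2k and Polr2l had levels near 1 FPKM in 1 of the groups and the widest ratios of the 12 subunits. Polr2k stood at 1.302 and 11.5 FPKM (ratio 2.74, error 1.66, q = 0.507) and Polr2l at 2.24 and 0.741 FPKM (ratio -1.14, error 1.55, q = 0.269). Their errors are the largest of the 12 subunits, and neither was called. For Polr2k the test statistic, 1.90, was larger in size than that of the called Polr2e (-1.82), yet its deposited Cuffdiff p was 0.257. The reason for this was not tested. The 12 subunits summed to 2649 FPKM in control cells and 2023 FPKM after knockout, 76.4% of control, beside 90.3% for the sum over all genes. Polr2f, Polr2e and Polr2j had the highest levels of the 12 in both groups and weigh most in this sum. Of them only Polr2e was called. Polr2m, which encodes the Pol II-binding protein Gdown1, stood at 120 and 101 FPKM (q = 0.496).

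**Figure D3:**
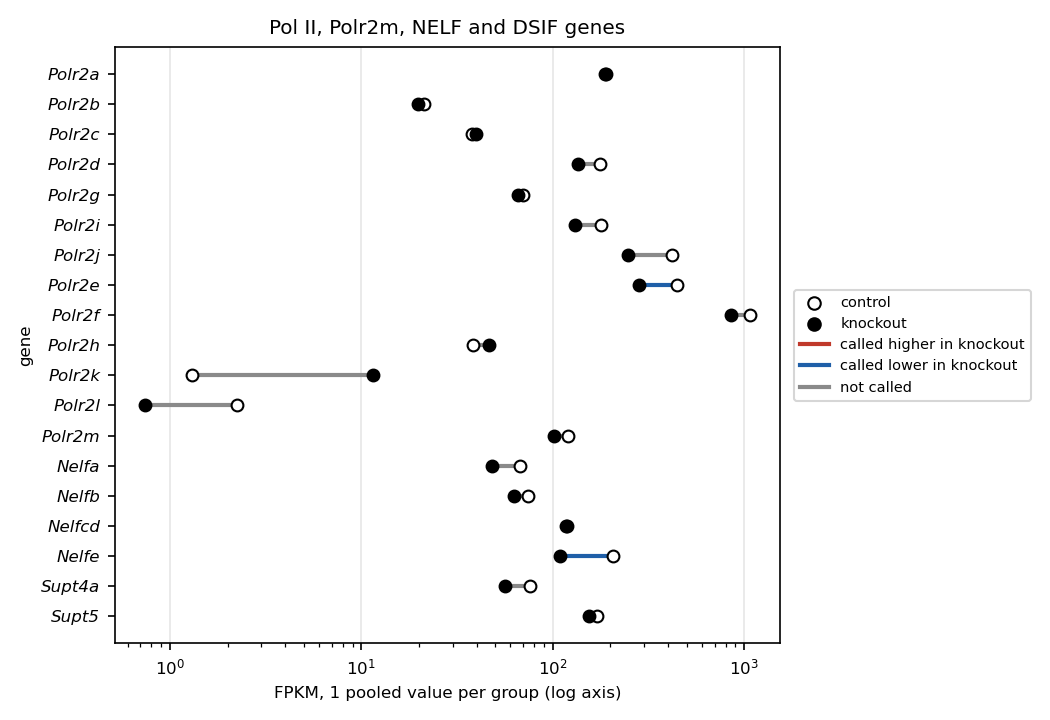
Pooled FPKM (log axis) in control and knockout cells of the Pol II subunit genes, Polr2m and the NELF and DSIF genes, 1 deposited value per gene and group and so no error bars. Polr2e and Nelfe, with blue lines, are the genes called, and Polr2a stands at 189 and 187 FPKM.

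Of the 4 NELF genes, 1 was called lower, beside 6.03% of all tested genes. Nelfe (chromosome 17, 34850391 to 34856372), the subunit with an RNA-binding domain, fell from 208 to 109 FPKM (ratio -0.92, error 0.38, Cuffdiff q = 0.0012). Nelfa, which contacts Pol II, stood at 67.0 and 47.9 FPKM (ratio -0.48, q = 0.230), Nelfb at 73.8 and 62.8 FPKM (q = 0.538) and Nelfcd at 117 and 119 FPKM (q = 0.958). In control cells Nelfe thus had the highest level per length of the 4, and in knockout cells it lay below Nelfcd.

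The DSIF genes, whose product joins NELF in the pause and then travels with Pol II, were not called: Supt5 stood at 170 and 155 FPKM (ratio -0.13, error 0.37, q = 0.757) and Supt4a at 75.7 and 56.5 FPKM (ratio -0.42, error 0.51, q = 0.387). Supt6, a histone chaperone that rides with elongating Pol II, stood at 74.7 and 82.8 FPKM (q = 0.725).

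Supt16 encodes the larger subunit of FACT, the histone chaperone that takes nucleosomes apart and rebuilds them around Pol II. It lies on chromosome 14 (52110704 to 52197239) and rose from 39.0 to 83.3 FPKM (ratio 1.09, error 0.37, Cuffdiff q = 0.0012), 2.14 times control. Its partner Ssrp1, on chromosome 2 and outside the symbol rule, stood at 106 and 140 FPKM and was not called (q = 0.237). The 3 Supt genes of the coactivator SAGA were not called: Supt3 stood at 8.29 and 8.12 FPKM, Supt7l at 10.3 and 10.97 FPKM and Supt20 at 38.9 and 53.9 FPKM (q = 0.371).

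Mediator, with 29 tested genes, was the largest group and had 1 gene higher and 1 lower, 6.90% called in all beside 12.9% of all tested genes. Its median ratio was -0.08, and the summed level went from 765 to 713 FPKM (93.2%), beside 90.3% for the sum over all genes. In the head module, which contacts Pol II, Med6 (chromosome 12, 81573557 to 81595006) rose from 27.8 to 64.0 FPKM (ratio 1.19, error 0.54, Cuffdiff q = 0.00776). The other 6 head genes had ratios between -0.22 and 0.30, from Med17 at 8.64 and 7.36 FPKM to Med22 at 24.4 and 30.2 FPKM, with the highest control level in Med11 at 31.1 and 30.2 FPKM, and the median of the module was 0.28. Of the middle module, 0 of 9 genes were called and the median was -0.24. Med1, the subunit that nuclear receptors bind, stood at 13.98 and 16.02 FPKM (q = 0.641). Med26, the docking site of elongation factors, stood at 23.4 and 17.5 FPKM (q = 0.286). Med10 had the lowest ratio of the module at 45.0 and 28.3 FPKM (-0.66, q = 0.159), and Med7 the lowest level at 5.87 and 6.14 FPKM. The scaffold gene Med14, which joins the modules, stood at 3.94 and 5.10 FPKM (q = 0.604).

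In the tail module, the part bound by many activators, 7 of 9 genes had lower levels in knockout cells and 1 was called. Over all 11362 tested genes, 5703 had lower levels and 12.9% were called. Med15 (chromosome 16, 17651221 to 17722930) fell from 34.0 to 19.9 FPKM (ratio -0.76, error 0.42, Cuffdiff q = 0.0132). Med25, with the highest level per length of all Mediator genes, stood just outside the threshold at 141 and 93.1 FPKM (ratio -0.59, error 0.38, q = 0.0542). Med23 stood at 7.02 and 9.57 FPKM (q = 0.314) and Med24, the other gene above control, at 44.3 and 50.0 FPKM. The median ratio of the tail was -0.26. The 3 tested kinase module genes lay close to control, Med12 at 17.3 and 16.5 FPKM (ratio -0.07, q = 0.874), Med13 at 4.03 and 3.89 FPKM (ratio -0.04, q = 0.928) and Med13l at 33.1 and 26.5 FPKM (ratio -0.32, q = 0.362).

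**Figure D4:**
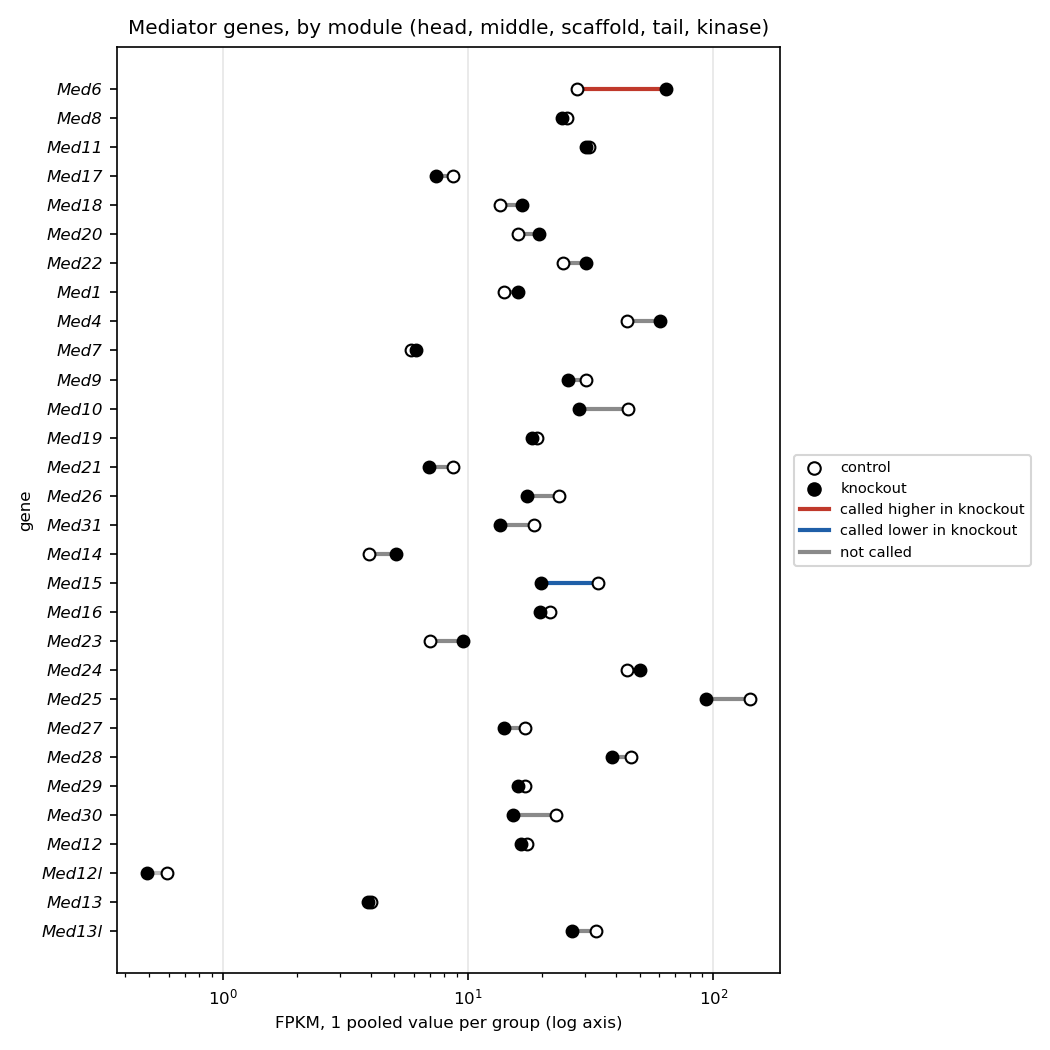
Pooled FPKM (log axis) of the Mediator genes by module in control and knockout cells, 1 deposited value per gene and group and so no error bars. Med6 at 27.8 and 64.0 FPKM and Med15 at 34.0 and 19.9 FPKM are the genes called, and Med12l was not tested.

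Of the 5 super elongation complex genes, 1 was called, and 4 had levels above control. Over all 11362 tested genes, 12.9% were called and 5659 had levels above control. Ell3 (chromosome 2, 121439010 to 121444278), an elongation factor known to occupy enhancers in embryonic stem cells, rose from 8.25 to 19.3 FPKM (ratio 1.18, error 0.62, Cuffdiff q = 0.0159). Its relatives were not called, with Ell at 49.6 and 40.6 FPKM (q = 0.439) and Ell2 at 13.01 and 17.3 FPKM (q = 0.322). The scaffolds Aff1 (32.4 and 39.4 FPKM, q = 0.437) and Aff4 (28.96 and 35.2 FPKM, q = 0.414) had ratios of 0.28 each. Ell3 had the lowest level of the 3 Ell genes in control cells, and in knockout cells it stood between Ell2 and Ell.

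Genes that work with these complexes but fall outside the symbol rule were read from 8 lists with 98 genes in the table. Of the 96 tested, 0 were called higher and 8 lower, beside 6.90% and 6.03% of all tested genes, and the median ratio was -0.15. In the list of P-TEFb, its inhibitor 7SK snRNP and associated genes, 2 of 10 were lower: the P-TEFb kinase Cdk9 (99.5 to 54.6 FPKM, Cuffdiff q = 0.0038) and Mepce, which caps 7SK (71.3 to 43.8 FPKM, q = 0.0184). The P-TEFb cyclin Ccnt1 stood at 59.5 and 71.8 FPKM and its inhibitor Hexim1 at 69.3 and 56.7 FPKM, both uncalled. Of 19 genes of the PAF1 complex and elongation, 1 was lower, the elongation factor Tcea3 (121 to 54.1 FPKM, q = 0.0012), while Paf1 stood at 89.7 and 86.8 FPKM.

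The partners closest to Integrator, namely PP2A subunits, SOSS proteins and Ints6l, had 0 of 7 called and a median of -0.24. Of the 6 tested further super elongation complex genes, 0 were called. The share for all counts in this paragraph is 12.9% of all tested genes called, with 6.03% called lower, so in lists this short 0 calls say little. The kinase module enzymes were not called either, Cdk8 standing at 36.8 and 25.8 FPKM (q = 0.139) and its cyclin Ccnc at 3.33 and 6.79 FPKM (q = 0.333). Of 18 general transcription factor genes, 1 was lower, the TFIIE subunit Gtf2e2 on chromosome 8 (21.5 to 10.4 FPKM, q = 0.0347), and the TFIIH kinase Cdk7 stood at 23.2 and 16.3 FPKM (q = 0.119). Of 14 genes for Pol II assembly and its C-terminal domain, 2 were lower, the import GTPase Gpn3 (62.0 to 37.3 FPKM, q = 0.0321) and Rprd1a, which binds that domain (16.8 to 6.80 FPKM, q = 0.0012). The other 2 lower genes were subunits of Pol I and Pol III.

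3 of the 5 genes called higher, Ints6, Ints9 and Supt16, lie on chromosome 14, where the median ratio of the 384 expressed tested genes was 0.70 and 30.2% of them were called higher. The fourth gene of the set there, the Mediator middle subunit Med4, stood at 44.4 and 60.7 FPKM (ratio 0.45, q = 0.253). The 20 expressed tested genes nearest to each, 10 on either side, were higher as well: all 20 lay above control around Ints9 (median ratio 1.89) and around Supt16 (0.94), and 18 did around Ints6 (1.26) and Med4 (0.72). The ratio of Ints9, 1.64, was thus below the median of its neighbours, and those of Ints6 and Med4 were too, while Supt16, at 1.09, was slightly above. Around Ints10 on chromosome 8, 18 of 20 neighbours lay below control (median -1.18).

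For most of the other called genes, the neighbours lay closer to control. Around Med6, called higher, the median of the neighbours was -0.18 and 5 of 20 lay above control. Around the lower Integrator genes it was -0.02 at Ints1, 0.21 at Ints3, -0.02 at Ints5, 0.20 at Ints8 and -0.04 at Ints13. It was -0.07 at Nelfe, -0.20 at Med15, -0.45 at Polr2e and 0.39 at Ell3. Without chromosomes 8 and 14, the calls were 2 higher and 8 lower of 64 genes, beside 593 and 617 of 10325 in all, and those of Integrator were 0 higher and 5 lower of 11. Set against the median of their chromosome, the ratios of the 3 called genes on chromosome 14 shrank to 0.93 for Ints9, 0.38 for Supt16 and 0.22 for Ints6, while those of Med6 (1.23) and Ell3 (1.15) stayed close to their values. These centred ratios carry no test of their own.

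**Figure D5:**
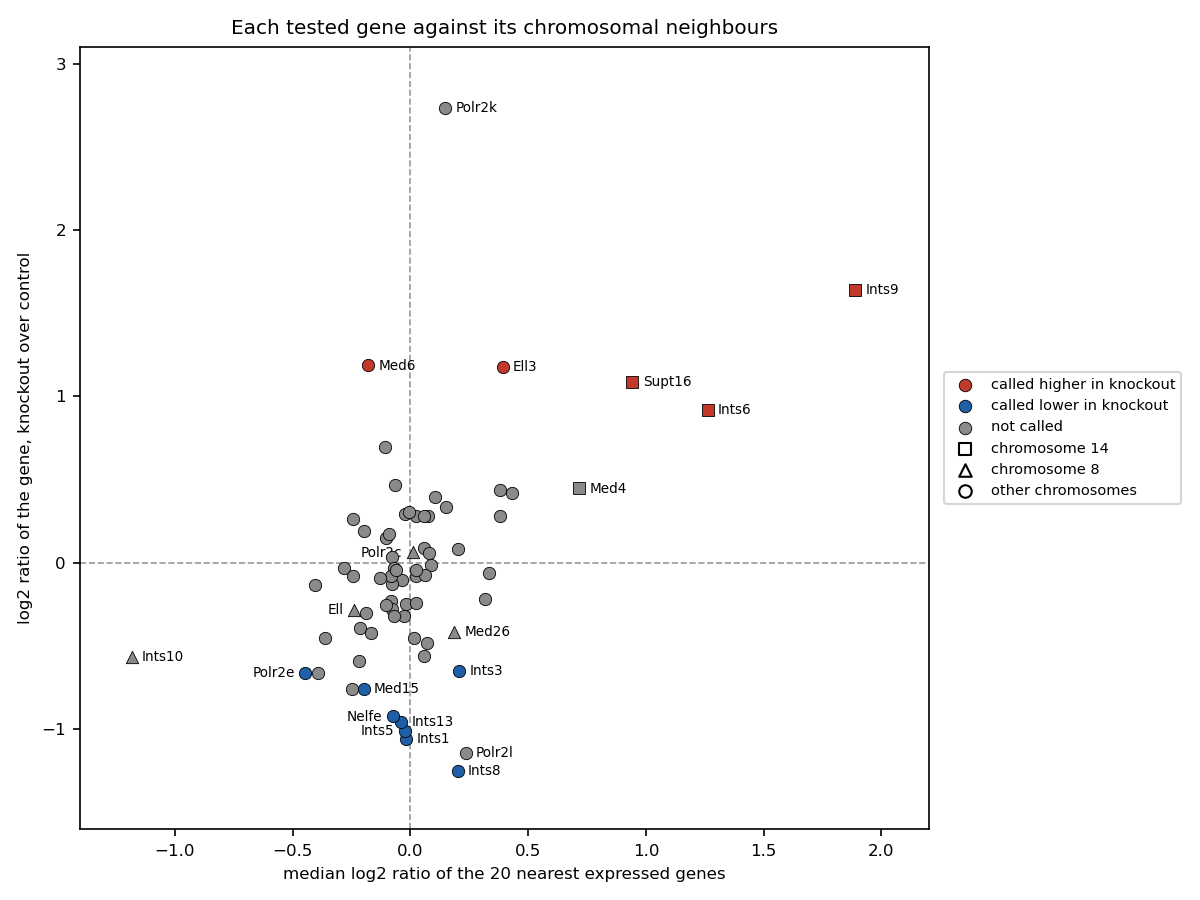
Ratio of each tested gene (y axis, log2) against the median ratio of its 20 nearest expressed tested genes (x axis, log2), with colour for the call and squares and triangles for chromosomes 14 and 8. The 4 squares lie to the right, at neighbour medians of 0.72 to 1.89, while the 8 genes called lower lie between -0.45 and 0.21.

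Promoters of the set were described from the RefSeq table of GRCm38.p6, which holds 300 bases per start, 250 before it and 50 after. Of the 73 genes, 60 matched by symbol, with 70 windows. The median window held 23 CG dinucleotides, against 21 in the 11278 windows of tested genes and 7 in all 32851 windows. Island-like windows, with a GC content of at least 50% and a ratio of observed to expected CG of at least 0.6, made up 78.6% of the set's windows, 68.4% of those of tested genes and 33.5% of all. Such base composition was thus common in the set and also among expressed genes as a whole. Among genes called lower, 5 of 6 windows were island-like. The exception was a window of Med15, and the other Med15 window, which overlaps it, was island-like. Among genes called higher 3 of 4 windows were, the exception being Ell3 with 9 CG dinucleotides in its window. These windows cover 5 of the 8 genes called lower and 4 of the 5 called higher. Ints5, Ints8, Nelfe and Ints9 had no window.

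Motifs were searched as exact letters on both strands. The GC box GGGCGG, bound by Sp family factors, was in 68.6% of the set's windows, 64.3% of those of tested genes and 35.7% of all. The CCAAT box, searched as the letters of its name, was in 40.0%, 37.8% and 37.4%, and for Integrator in 9 of 11 windows, which include those of Ints3, Ints13 and Ints6 but not Ints1. The ETS core CCGGAAG was in 22.9%, 17.97% and 8.86%, and the 8-letter NRF1 core GCATGCGC in 12.9%, 5.43% and 2.71%. The TATA box, searched as TATAAA, was in 8.57%, 6.59% and 13.6%, and in 0 of the 11 Integrator windows. These are matches of letters and say nothing of binding.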

How the data were processed

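The series holds 43 samples of E14 cells: 36 ChIP-seq samples and 1 input, not analysed here, and 6 RNA-seq libraries, 3 control and 3 knockout, made, per the labels' protocols, from poly(A) RNA bound to oligo-dT beads. The tools named in the submitters' processing notes are Cuffdiff 2.2.1.3, TopHat2 2.1.0, Bowtie 1.0 and deepTools, and the builds are mm10 and mm9, without their roles. The authors made the FPKM values, pooling the libraries of a group into 1 level per gene, per the file headers. The sources used here do not give how libraries were scaled to each other. The deposited log2 fold change is knockout over control, and the deposited test statistic is a score that relates it to its estimated error. The p-value and q-value are the authors' own, per the file headers.

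Computed here were ratios with a pseudocount of 0.5 FPKM, which understates the change of low genes, the error implied by dividing the deposited log2 fold change by the test statistic, counts of calls at a q of 0.05, medians, sums and neighbour medians over genes with an FPKM of at least 1 in either group. No test of replicates was possible from pooled values. Starts were moved from 0-based to 1-based, and of the 73 genes all lay on the same chromosome in RefSeq GRCm38.p6, the reference of mm10, and 51 had both ends within 2 kb, so coordinates are given as mm10. The rule for the genes uses symbols alone, but the set and the partner lists were chosen with earlier results of these data known. All called genes were named, and in each complex those with the highest and lowest level and the largest gain and loss, and defining subunits. Partner genes were named if called or if central to their complex, and some that this rule takes are not reported here. The count of calls by a normal p was tested on simulated statistics, which does not test the calls by the deposited q. Alternatives were another q, a minimum fold, level filters, a recomputed adjustment, a normal p, other pseudocounts, other centrings, and leaving out chromosomes 8 and 14 or shared locus entries.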

Additional observations from a re-analysis of the deposited data

How the results depend on the processing

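Of the set's 5 higher and 8 lower calls, 3 and 3 were left at a q of 0.01, and 0 and 0 with a normal p taken from the test statistic. That normal p left 95 higher and 29 lower calls among all tested genes, and a q of 0.01 left 439 and 336. A 2-fold minimum left 3 lower calls. Without chromosomes 8 and 14 there were 2 higher calls, and without shared locus entries 3 higher and 5 lower. The 2 higher and 5 lower Integrator calls became 1 and 2 at a q of 0.01, 0 and 0 with the normal p, and 1 and 2 without shared locus entries. A 2-fold minimum left 3 lower Integrator calls, and leaving out chromosomes 8 and 14 left 0 higher ones. The filters on FPKM and the recomputed adjustment left all 4 counts within 1.5 times their value. Among medians of complexes, that of the subunits of Pol II alone moved from -0.10 to -0.25 without chromosomes 8 and 14, and without shared locus entries NELF moved from -0.36 to -0.58 and the Mediator head from 0.28 to 0.12. For these exclusions no gene was tested anew, and each median was taken over the fewer genes left. Other pseudocounts and centrings changed the direction of none of the 13 called genes, but centring on the chromosome median moved Ints9 from 1.64 to 0.93, Supt16 from 1.09 to 0.38 and Ints6 from 0.92 to 0.22. The scale between libraries and the depth of each limit the precision by an unknown amount. No paired analysis was possible because the table holds 1 pooled value per gene and group, and leaving out a replicate could not be run for the same reason.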

Other observations

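The subunits of Pol I and Pol III that Pol II does not use were read from a list of 19 genes, all tested. Of these, 0 were called higher and 2 lower, beside 6.90% and 6.03% of all tested genes, 14 of the 19 had levels below control, and the median ratio was -0.21. Polr1b, the second largest subunit of Pol I, fell from 23.6 to 14.1 FPKM (ratio -0.72, Cuffdiff q = 0.0302), and Polr3e, a Pol III subunit, fell from 36.7 to 19.6 FPKM (ratio -0.89, q = 0.0012), both in the authors' deposited table. Their summed level went from 937 to 848 FPKM, 90.5% of control, beside 90.3% for the sum over all genes.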
